A study of Yarrowia lipolytica with 9 samples.

Results

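The data describe 6 acyltransferase genes of the oleaginous yeast Yarrowia lipolytica that build its storage lipids, out of 6366 features in the deposited tables. The members were chosen by transcript accession: SCT1 (XM_501275.1), SLC1 (XM_504127.1), DGA1 (XM_504700.1), DGA2 (XM_502557.1), LRO1 (XM_504038.1) and ARE1 (XM_505086.1). Each of the 6 had a coding length between 849 bp (SLC1) and 2184 bp (SCT1), inside the range of 800 to 2600 bp set for a member, so none was left out. The tables hold accessions and no gene names, so the names rest on the accession, and a length check cannot prove a name. In the RefSeq gene table of assembly ASM176148v1 the accessions, matched without version, carry the locus tags YALI1_C00230g, YALI1_E22736g, YALI1_E38810g, YALI1_D10264g, YALI1_E20049g and YALI1_F09747g, in the order above. The genome build behind the deposited tables is not given in the sources used here, and no coordinates are printed.

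RNA was sequenced from 3 strains, yl_12, yl_11 and yl_10, with 3 libraries per strain (9 in total). The labels give ATCC 201249 as the background of every strain and say that each carries heterologous genes, which are not named. The cells were taken after 72 h in flasks at 28 °C and 250 rpm, and the series compares strains that make different levels of lycopene, a red carotenoid. The labels tie no lycopene level to a strain, name no parent or control, and leave unsaid whether replicate libraries stem from separate cultures. Each pair of strains was therefore compared and every fold is named by its strains.

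Storage lipid in yeasts is triacylglycerol and sterol ester, kept in lipid droplets. In the pathway known from Saccharomyces cerevisiae, SCT1 adds the first acyl chain to glycerol-3-phosphate and SLC1 adds the next to give phosphatidic acid, which is dephosphorylated to diacylglycerol. The last step to triacylglycerol has 2 routes. DGA1 (of the DGAT2 family) and DGA2 (of the DGAT1 family) take the acyl chain from acyl-CoA, and LRO1 takes it from a phospholipid. ARE1 esterifies sterols with acyl-CoA and belongs to the same wider protein family as DGA2. Fatty acids, sterols and carotenoids such as lycopene all draw on acetyl-CoA.

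Library totals lay between 7035777 and 16424183 counts, and 6147 features passed the filter on low counts, all 6 members among them. The libraries yl_12 replicate 3, yl_11 replicate 1 and yl_10 replicate 3 stood apart from the rest of their strain. The chi-square per degree of freedom between 2 libraries of a strain was 7.09 to 15.4 for pairs with such a library, and 1.72 to 2.31 for pairs without one. The 3 were recognised by their values, not by a label, and results that rest on them are given with and without them.

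Transcript levels of the 6 genes spanned a wide range, and their order was the same in all 9 libraries. Levels are given in FPKM, the authors' count divided by coding length and by the total of the library, which allows genes to be compared. DGA1 was the most abundant, with a mean of 457 FPKM over the 9 libraries and place 347 of 6147 tested features. SLC1 followed with 189 FPKM and ARE1 with 152 FPKM. LRO1 had 70.8 FPKM, SCT1 44.5 FPKM and DGA2 29.2 FPKM. The median tested feature had 37.3 FPKM, so DGA2, the other gene of the acyl-CoA route to triacylglycerol, was the only member below it. Each neighbour in this order exceeded the next in 9 of 9 libraries. The narrowest step was SLC1 over ARE1, by 1.09 to 1.49 times within a library. The ranges over the 9 libraries overlapped for 1 pair of neighbours, SCT1 and DGA2. The smallest count behind any of these values was 264 reads, for DGA2 in yl_10 replicate 3.

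**Figure D1:**
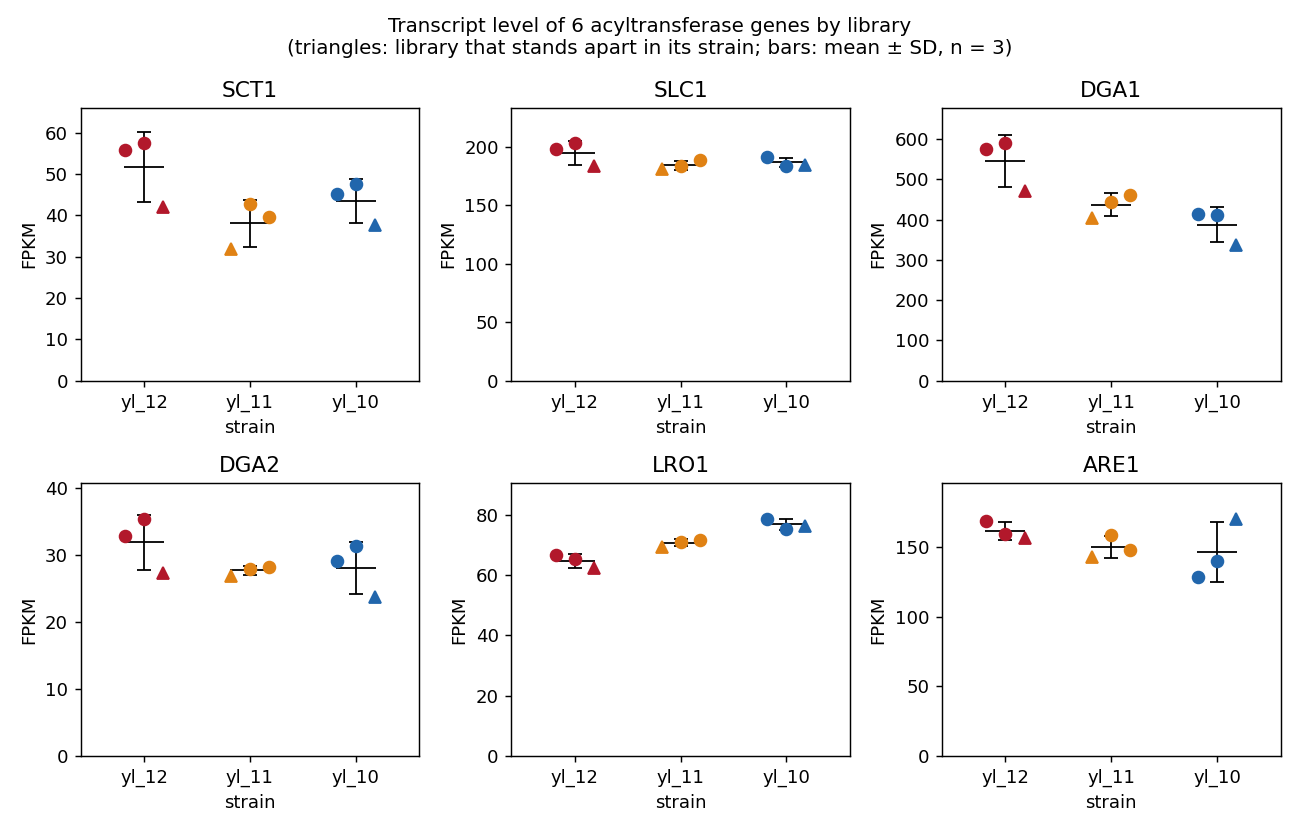
Transcript level in FPKM (vertical axes, each from 0) of each acyltransferase gene in the libraries of yl_12, yl_11 and yl_10. Points are libraries, triangles are the library that stands apart in each strain, and black bars are the mean ± SD of 3 libraries. DGA1 is highest in yl_12 (471 to 590.3 FPKM) and LRO1 is lowest there (62.3 to 66.7 FPKM).

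DGA1, the diacylglycerol acyltransferase of the DGAT2 family, had 576, 590.3 and 471 FPKM in yl_12, 405, 445 and 461 FPKM in yl_11, and 414, 411 and 338 FPKM in yl_10. All yl_12 libraries lay above all others, although the lowest of yl_12 was close to the highest of yl_11. In FPKM, which holds no correction for composition, yl_11 overlapped yl_10. Mean levels were 546 ± 65 FPKM in yl_12, 437 ± 29 in yl_11 and 388 ± 43 in yl_10 (SD, n = 3 each). DGA1 rose 1.46-fold in yl_12 against yl_10 (log2 fold change 0.55, SE 0.09, adjusted p = 0.00246 in edgeR's quasi-likelihood test with Benjamini-Hochberg adjustment). It also rose in yl_12 against yl_11, by 0.35 on the log2 scale (SE 0.09, adjusted p = 0.0425 in edgeR). The difference of yl_11 to yl_10, 0.20 (SE 0.09, adjusted p = 0.262 in edgeR), did not pass the test. It was 0.12 (adjusted p = 0.457) without yl_10 replicate 3. Without all 3 libraries that stand apart it was 0.17 and called (adjusted p = 2.85e-05), as it was with a term for them (0.20, adjusted p = 0.00259). In RNA from a whole culture, fewer cells with the transcript and less of it per cell cannot be told apart. The call against yl_10 held in all 18 alternative analyses, with log2 fold changes of 0.47 to 0.64. The call against yl_11 was lost in 10 of 18, among them limma, scaling by library totals and a fit of the 2 strains alone, where the adjusted p reached 0.154 and the log2 fold change stayed between 0.29 and 0.39. It was lost without yl_10 replicate 1 or 2 (adjusted p = 0.0555 and 0.0613 in edgeR) and without yl_12 replicate 1 or 2 (0.152 and 0.154). It was also lost without any one of yl_11 replicates 1, 2 and 3 (0.151, 0.113 and 0.0673).

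DGA2, the diacylglycerol acyltransferase of the DGAT1 family, had 32.9, 35.5 and 27.4 FPKM in yl_12, 26.9, 28.0 and 28.2 FPKM in yl_11, and 29.1, 31.4 and 23.7 FPKM in yl_10. In FPKM, which holds no correction for composition, the strains overlapped, and the lowest values of yl_12 and yl_10 were those of their replicate 3. The log2 fold change was 0.23 in yl_12 against yl_10 (SE 0.10, adjusted p = 0.137 in edgeR) and 0.23 in yl_12 against yl_11 (SE 0.10, adjusted p = 0.189). Neither passed the test with all 9 libraries. Without yl_12 replicate 3 alone, DGA2 passed it in yl_12 against yl_10 (log2 fold change 0.33, adjusted p = 0.0192 in edgeR) and against yl_11 (0.33, adjusted p = 0.0248). Other omissions lowered it: against yl_10 it was 0.16 without yl_12 replicate 2 (adjusted p = 0.412) and 0.15 without yl_10 replicate 3 (0.329), and against yl_11 it was 0.15 without yl_12 replicate 2 (0.518).

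LRO1, the phospholipid:diacylglycerol acyltransferase, went in the other direction. It had 66.7, 65.3 and 62.3 FPKM in yl_12, 69.5, 70.9 and 71.7 FPKM in yl_11, and 78.8, 75.3 and 76.4 FPKM in yl_10. The 3 strains did not overlap in any pair, and yl_11 lay in between. Mean levels were 64.8 ± 2.2 FPKM in yl_12, 70.7 ± 1.1 in yl_11 and 76.8 ± 1.7 in yl_10 (SD, n = 3 each). LRO1 fell in yl_12 against yl_10 (log2 fold change -0.19, SE 0.04, adjusted p = 0.00902 in edgeR), and this call held in all 18 alternatives (-0.25 to -0.17). The steps in between, -0.10 in yl_12 against yl_11 (SE 0.04, adjusted p = 0.218 in edgeR) and -0.10 in yl_11 against yl_10 (SE 0.04, adjusted p = 0.231), did not pass the test. FPKM holds no correction for library composition, and the share of all tested features whose FPKM did not overlap between strains was 34.1% for yl_12 against yl_10, 29.4% for yl_12 against yl_11 and 27.9% for yl_11 against yl_10. A lack of overlap in FPKM was therefore frequent in these libraries, and more often to the low side in yl_12 (24.5% lower and 9.57% higher than yl_10).

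ARE1, the sterol acyltransferase, had 168, 159 and 157 FPKM in yl_12, 143, 158 and 148 FPKM in yl_11, and 129, 139.7 and 170.2 FPKM in yl_10. In FPKM, which holds no correction for composition, the strains overlapped in every pair. In yl_10, replicate 3 was the highest of all 9 libraries while the other 2 were the lowest. The yl_11 value of 158 FPKM (replicate 2) lay above the yl_12 value of 157 FPKM (replicate 3). The difference of yl_12 to yl_10, 0.20 on the log2 scale (SE 0.10, adjusted p = 0.213 in edgeR), did not pass the test. Without yl_10 replicate 3 it was 0.34 (SE 0.05, adjusted p = 0.00183 in edgeR), and without yl_10 replicate 1 it was 0.11 (adjusted p = 0.498), so the value depends on single libraries of yl_10. The same library set the spread of ARE1 within yl_10, at 14.7% of the mean against 3.91% in yl_12 and 5.29% in yl_11.

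SCT1, the enzyme of the first acylation, had 55.9, 57.5 and 42.0 FPKM in yl_12, 31.8, 42.9 and 39.7 FPKM in yl_11, and 45.2, 47.7 and 37.6 FPKM in yl_10. In every strain the lowest FPKM came from the library that stands apart, and all strains overlapped in FPKM, which holds no correction for composition. The overlap of yl_12 and yl_11 was narrow, with 42.0 FPKM in yl_12 replicate 3 and 42.9 in yl_11 replicate 2. The difference of yl_12 to yl_11 was 0.48 on the log2 scale (SE 0.14, adjusted p = 0.0914 in edgeR), and that of yl_12 to yl_10 was 0.30 (SE 0.14, adjusted p = 0.211). Both missed the threshold, and both passed it without yl_12 replicate 3, at 0.60 (adjusted p = 0.0121 in edgeR) and 0.43 (adjusted p = 0.0394). With any 1 library left out they ranged from 0.36 to 0.60 and from 0.22 to 0.43. DESeq2 on all 9 libraries also called SCT1 in yl_12 against yl_11 (adjusted p = 0.00462). SCT1 was the member with the widest range, 1.81 times between its lowest and its highest library.

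SLC1, the enzyme of the next acylation, varied least, with 1.12 times between its lowest and its highest library. It had 198, 203 and 183 FPKM in yl_12, 181, 183 and 189 FPKM in yl_11, and 191, 184 and 185 FPKM in yl_10. The log2 fold change was 0.12 in yl_12 against yl_10 (SE 0.05, adjusted p = 0.111 in edgeR), 0.11 in yl_12 against yl_11 (SE 0.04, adjusted p = 0.177) and 0.0046 in yl_11 against yl_10 (SE 0.05, adjusted p = 0.974). Without yl_12 replicate 3, SLC1 passed the test in yl_12 against yl_10 (0.16, adjusted p = 0.034 in edgeR), and without yl_12 replicate 2 its difference was 0.09 (adjusted p = 0.317).

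In yl_12 against yl_10, 1 member rose and 1 fell out of 6, while 14.8% of all tested features were called (7.00% higher and 7.81% lower). In yl_12 against yl_11, 1 of 6 rose and none fell, against a background of 7.04% (3.20% higher and 3.84% lower). In yl_11 against yl_10, edgeR called 0 of 6, against a background of 4.16% (1.68% higher and 2.49% lower). DESeq2 and limma also called 0 of 6, where they called 5.99% and 3.17% of all tested features. In edgeR, 1 member (LRO1) had an unadjusted p under 0.05, and the share of all features below it is not given here. The F test among the 3 strains called DGA1 (adjusted p = 0.00591) and LRO1 (adjusted p = 0.0234), 2 of 6 against 15.0% of all features. The F call of LRO1 was lost when yl_12 replicate 1, 2 or 3 (adjusted p = 0.0538, 0.0713 and 0.0562), yl_11 replicate 3 (0.0577) or yl_10 replicate 1 (0.091) was left out. The comparisons share libraries and are not independent. The median log2 fold change of the members in yl_12 against yl_10 was 0.22, with 5 of 6 positive. Over all tested features it was -0.0037, with 3015 of 6147 positive. Of the 5 positive members, only DGA1 was called. Differences were small, and no member reached a 2-fold change in any comparison.

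**Figure D2:**
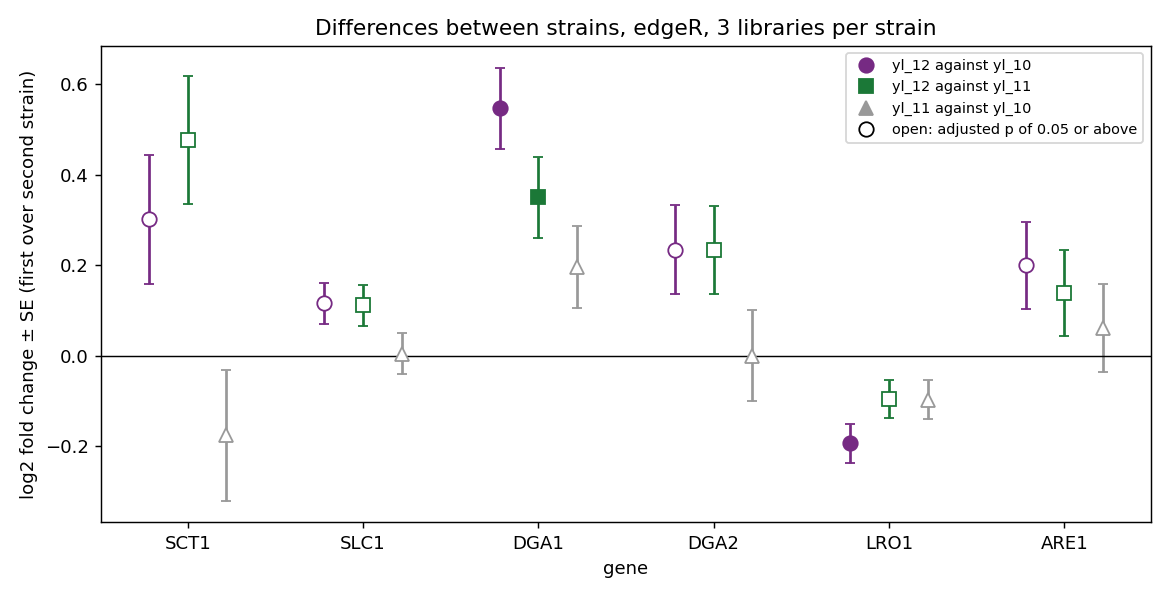
Log2 fold change ± SE (vertical axis) of each acyltransferase gene in the 3 comparisons of strains, from the edgeR fit of all 9 libraries. Filled symbols passed an adjusted p of 0.05: DGA1 in yl_12 against yl_10 (0.55) and against yl_11 (0.35), and LRO1 in yl_12 against yl_10 (-0.19).

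Transcript ratios among the genes of the last step to triacylglycerol differed among the strains. DGA1 was highest relative to DGA2, which shares its acyl-CoA route, and to LRO1 in yl_12, and lowest in yl_10. These ratios use the same libraries and FPKM values as the levels above, so they are not separate evidence. A ratio of 2 genes within a library does not depend on the scaling of that library, and 5 ratios were tested with an exact permutation test over all 280 partitions of the 9 libraries into 3 groups of 3. The smallest p this test can give is 0.0036.

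DGA1 exceeded DGA2 by 17.5, 16.7 and 17.2 times in yl_12, by 15.1, 15.9 and 16.3 times in yl_11, and by 14.2, 13.1 and 14.2 times in yl_10. The strains did not overlap in this ratio in any pair, but the lowest of yl_12 (16.7) was close to the highest of yl_11 (16.3). Counting error of DGA2 was 4.02% of its mean level in yl_12 and 4.17% in yl_11. How often ratios of other gene pairs separate all 3 strains was not tested. The differences in mean log2 ratio were 0.31 for yl_12 minus yl_10 and 0.12 for yl_12 minus yl_11. The strains differed (exact permutation p = 0.00357, adjusted p = 0.00893 over 5 ratios, n = 3 libraries each). The library that stands apart was within the range of the other 2 in yl_12, the lowest in yl_11 and about level with the upper one in yl_10.

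LRO1 stood at 0.116, 0.111 and 0.132 of DGA1 in yl_12, at 0.172, 0.159 and 0.156 in yl_11, and at 0.190, 0.183 and 0.226 in yl_10. Here too no 2 strains overlapped, and the mean log2 ratio was lower by 0.74 in yl_12 than in yl_10 and by 0.44 than in yl_11. The strains differed (exact permutation p = 0.00357, adjusted p = 0.00893 over 5 ratios). In every strain the highest ratio was that of the library that stands apart.

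LRO1 to DGA2 was 2.03, 1.84 and 2.28 in yl_12, 2.58, 2.53 and 2.54 in yl_11, and 2.71, 2.40 and 3.22 in yl_10. The yl_12 libraries lay below all others, and yl_11 and yl_10 overlapped (exact permutation p = 0.0214, adjusted p = 0.0357). This call was lost in 6 of the 9 tests that leave out 1 library: without yl_12 replicate 2 (adjusted p = 0.101), yl_11 replicate 1, 2 or 3 (0.0655, 0.0714 and 0.0714) and yl_10 replicate 1 or 3 (0.0774 and 0.119), all by exact permutation. Those for DGA1 to DGA2 and for LRO1 to DGA1 held in all 9 (adjusted p up to 0.0179). The 3 ratios are built from the same 3 genes, so they are not independent of each other.

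The remaining ratios did not pass the test. ARE1 to DGA2 averaged 5.08 in yl_12, 5.40 in yl_11 and 5.21 in yl_10 (geometric means, exact permutation p = 0.946). SCT1 to SLC1, the first acylation to the next, averaged 0.263 in yl_12, 0.205 in yl_11 and 0.232 in yl_10 (exact permutation p = 0.125, adjusted p = 0.156). The yl_12 and yl_11 libraries overlapped in both ratios.

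**Figure D3:**
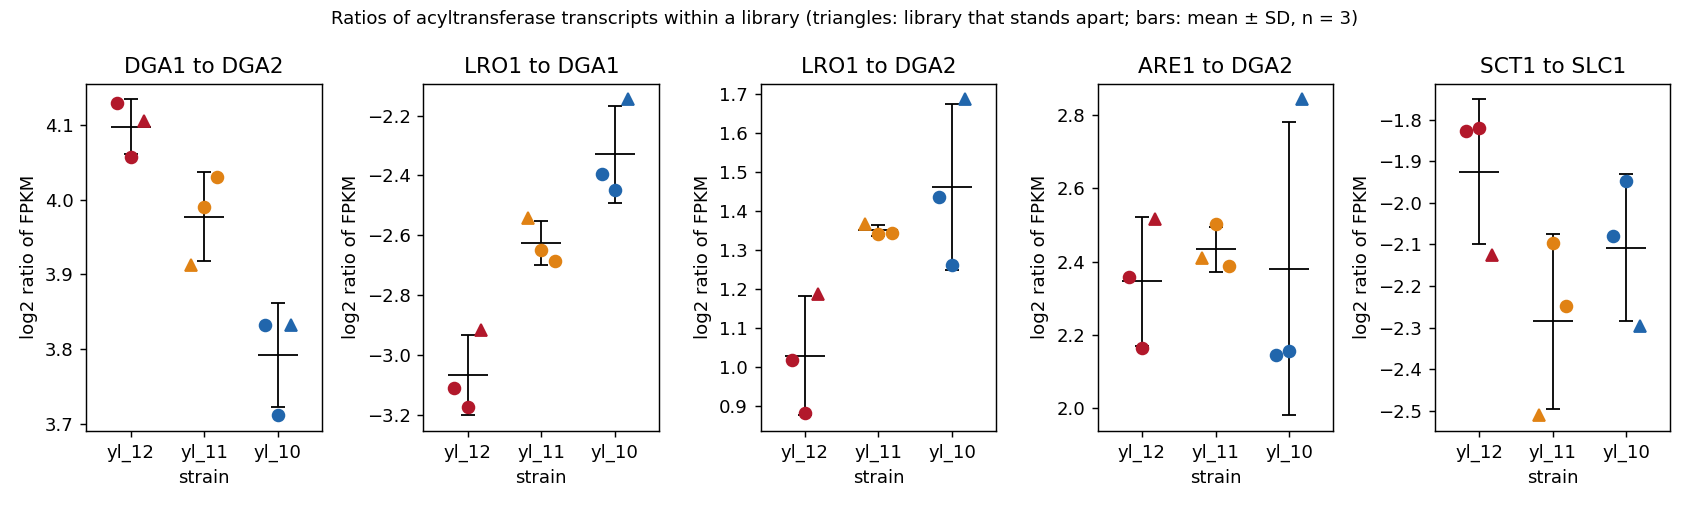
Log2 ratio of FPKM (vertical axes, which do not start at 0) for 5 pairs of acyltransferase genes in the libraries of yl_12, yl_11 and yl_10. Points are libraries, triangles the library that stands apart, and bars the mean ± SD of 3 libraries. DGA1 to DGA2 is highest in yl_12 (mean 4.10) and lowest in yl_10 (mean 3.79), and LRO1 to DGA1 runs the other way (-3.07 in yl_12 and -2.33 in yl_10).

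As a description with no test, the FPKM of DGA1, DGA2 and LRO1 were summed as the last step of triacylglycerol synthesis. The sum was 642 ± 71 FPKM in yl_12, 535 ± 31 in yl_11 and 493 ± 47 in yl_10 (SD, n = 3 each). DGA1 held 84.9% ± 0.8 of it in yl_12, 81.6% ± 0.7 in yl_11 and 78.6% ± 1.3 in yl_10. LRO1 held 10.1% ± 0.9 in yl_12, 13.2% ± 0.6 in yl_11 and 15.7% ± 1.5 in yl_10. DGA2 stayed near 5% in each, at 4.96% in yl_12, 5.18% in yl_11 and 5.68% in yl_10. Over all 6 genes, ARE1 held 15.4% in yl_12, 16.5% in yl_11 and 16.9% in yl_10, and yl_10 replicate 3 had the highest share of it, 20.5%.

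By FPKM, 5 of the 6 genes went the same way in the library that stands apart in each strain. SCT1, SLC1, DGA1, DGA2 and LRO1 were lower in it than in the mean of the other 2 libraries in all 3 strains. This was so for 27.8% of all tested features, while 11.7% were higher in all 3. FPKM holds no correction for composition, and these libraries had the lowest TMM scaling factor of their strain (in yl_10, 0.9974 against 1.0267 and 1.03). The sign of small differences, such as LRO1 and SLC1 in yl_10 replicate 3 (-0.01 and -0.02), may therefore depend on the scaling. SCT1 was lower by 0.43 on the log2 scale in yl_12 replicate 3, by 0.38 in yl_11 replicate 1 and by 0.30 in yl_10 replicate 3. DGA1 was lower by 0.31, 0.16 and 0.29 in the same 3 libraries, in that order. For LRO1 the differences were small, -0.08, -0.04 and -0.01. ARE1 was the exception, at -0.07 in yl_12 replicate 3, -0.10 in yl_11 replicate 1 and 0.34 in yl_10 replicate 3. The labels give no date, batch or RNA quality for these libraries, and what sets them apart was not tested.

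With these 3 libraries left out, edgeR called all 6 members in yl_12 against yl_10, 5 in yl_12 against yl_11 (all but LRO1) and 2 in yl_11 against yl_10 (DGA1 and ARE1). Of all tested features, 31.2%, 24.6% and 20.1% were then called in these comparisons, in the same order. Since the libraries left out are those most unlike their replicates, the spread is smaller by design, and 1920 of all tested features were called in yl_12 against yl_10, where all 9 libraries gave 910. The log2 fold changes of yl_12 against yl_10 were then 0.56 for DGA1, 0.25 for DGA2, -0.17 for LRO1, 0.35 for ARE1, 0.35 for SCT1 and 0.15 for SLC1. They lay within 0.05 of the values from all 9 libraries for 4 of these genes, and ARE1 and SCT1 were higher by more.

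**Figure D4:**
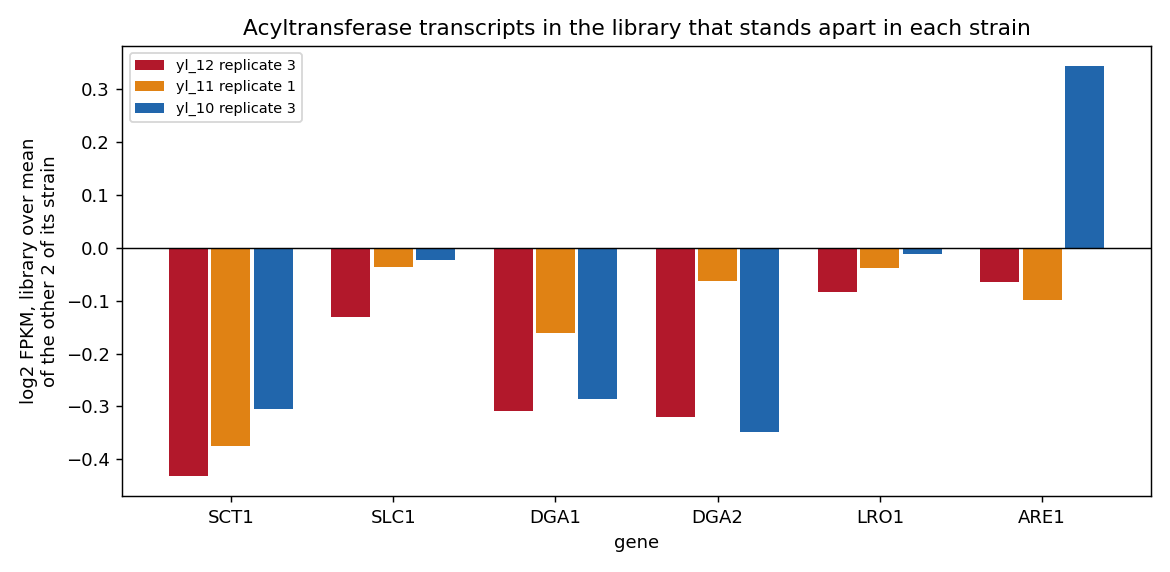
Log2 ratio of FPKM (vertical axis) in the library that stands apart to the mean of the other 2 libraries of its strain, for each acyltransferase gene. Bars are single libraries: yl_12 replicate 3, yl_11 replicate 1 and yl_10 replicate 3. All bars but 1 point down, the exception being ARE1 in yl_10 replicate 3 (0.34).

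Genes that supply or break down the acyl chains were set beside the acyltransferases, from lists of 14 accessions, of which 13 were used. An accession listed as a fatty acid synthase subunit (XM_501096.1) lay inside the length range set for it. It was left out because its coding length of 5553 bp exceeded the 4872 bp of its gene in the RefSeq table, which put its name in doubt. Its log2 fold change in yl_12 against yl_10 was 0.34 (SE 0.22, adjusted p = 0.359 in edgeR), which was not called. Of 4 genes of acyl-CoA supply, 2 rose in yl_12 against yl_10 and none fell, where 7.00% of all tested features were called higher and 7.81% lower. FAS1, a subunit of fatty acid synthase, had 109 ± 10 FPKM in yl_12 and 86.9 ± 10.9 FPKM in yl_10 (SD, n = 3 each), with a log2 fold change at 0.38 (SE 0.08, adjusted p = 0.00941 in edgeR). ACL2, a subunit of ATP citrate lyase, which makes cytosolic acetyl-CoA, had 350.0 ± 29 FPKM in yl_12 and 301 ± 1.8 FPKM in yl_10 (0.27, SE 0.06, adjusted p = 0.0058). ACC1, acetyl-CoA carboxylase, differed by 0.11 on the log2 scale (SE 0.11, adjusted p = 0.562), and ACL1, the other subunit of ATP citrate lyase, by 0.18 (SE 0.07, adjusted p = 0.135), and neither passed the test. FAS1 was also called in yl_12 against yl_11 (0.34, SE 0.08, adjusted p = 0.0291), but 7 of 18 alternatives lost this call: library totals (adjusted p = 0.0897), limma (0.106), and the fits without yl_12 replicate 1 or 2 (0.115 each) or yl_11 replicate 1, 2 or 3 (0.114, 0.0716 and 0.0711).

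Of 7 genes of peroxisomal beta-oxidation, 3 fell in yl_12 against yl_10 and none rose, beside the same 7.81% lower and 7.00% higher over all tested features. POX2, an acyl-CoA oxidase, had 266 ± 34 FPKM in yl_12, 468 ± 15 in yl_11 and 593 ± 31 in yl_10 (SD, n = 3 each). Its log2 fold change was -1.11 in yl_12 against yl_10 (SE 0.09, adjusted p = 2.22e-05 in edgeR) and -0.79 in yl_12 against yl_11 (SE 0.09, adjusted p = 0.000383). MFE1, the multifunctional enzyme of the next steps, had 236 ± 9.0 FPKM in yl_12, 294 ± 5.0 in yl_11 and 329 ± 5.9 in yl_10. It fell by 0.43 on the log2 scale in yl_12 against yl_10 (SE 0.05, adjusted p = 8.14e-05 in edgeR) and by 0.29 in yl_12 against yl_11 (SE 0.05, adjusted p = 0.00274). POX3, another acyl-CoA oxidase, had 199 to 202 FPKM in yl_12 and 232 to 243 FPKM in yl_10 (log2 fold change -0.20, SE 0.04, adjusted p = 0.00682 in edgeR). POX3 had no match in the RefSeq table, so its length was checked against the set range alone. The POX sequences were not compared with each other. POX1, POX4, POX5 and POX6 did not pass the test in any comparison of edgeR, and POX1 was scarce, with 10 to 24 counts per library.

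Neither of the 2 desaturase genes, OLE1 and FAD2, was called in a comparison of 2 strains by edgeR. At an unadjusted p under 0.05 there was 1 in yl_12 against yl_11 and 1 in yl_11 against yl_10. The share of all features at that unadjusted p is not given here. DESeq2 called 1 in yl_11 against yl_10, where it called 5.99% of all tested features. OLE1, the stearoyl-CoA desaturase, passed the F test among the 3 strains (adjusted p = 0.044) with its highest level in yl_11. It had 1611 ± 159 FPKM in yl_12, 1869 ± 105 in yl_11 and 1598 ± 71 in yl_10. Its log2 fold change in yl_11 against yl_10 was 0.25 (SE 0.07, adjusted p = 0.0528 in edgeR).

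**Figure D5:**
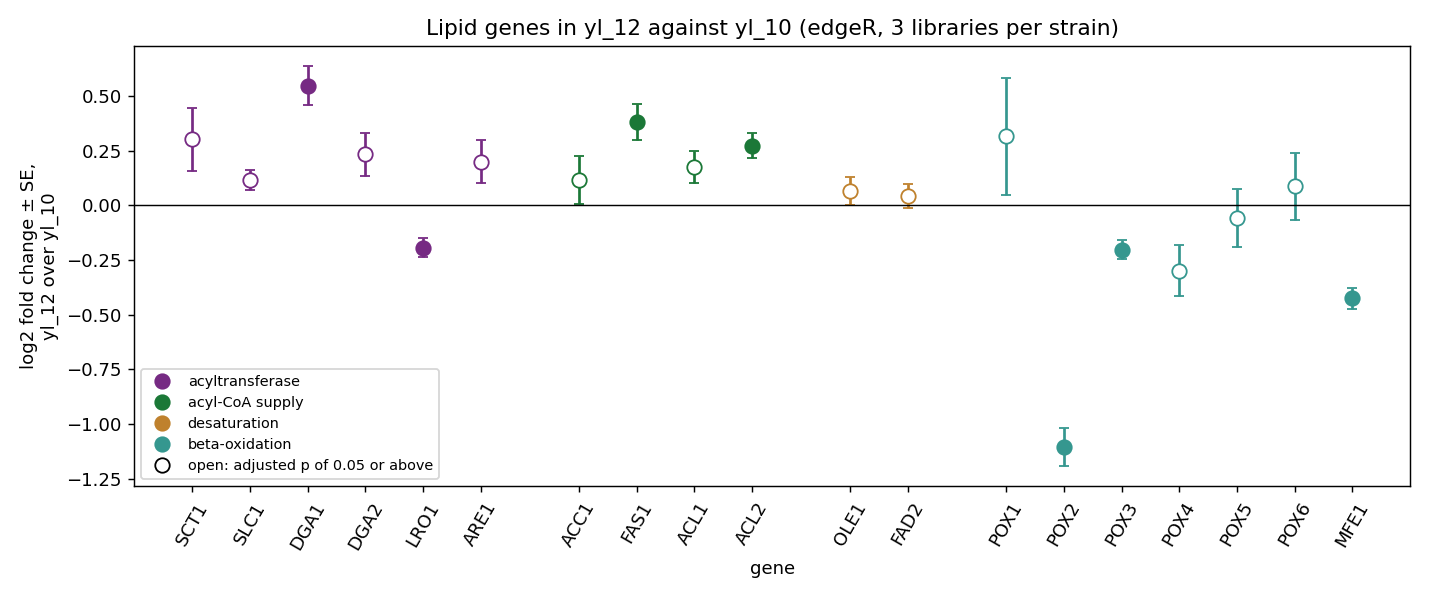
Log2 fold change ± SE of yl_12 over yl_10 (vertical axis) for 6 acyltransferase genes, 4 genes of acyl-CoA supply, 2 desaturases and 7 genes of peroxisomal beta-oxidation. Filled points passed an adjusted p of 0.05 in edgeR. DGA1 (0.55), FAS1 (0.38) and ACL2 (0.27) are the filled points above 0, and POX2 (-1.11) is the lowest.

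The 12 tested neighbours of the 6 genes on the chromosome had adjusted p-values of 0.0734 or more in the 3 comparisons (edgeR), so 0 of them were called. Of all tested features, 14.8% were called in yl_12 against yl_10, 7.04% in yl_12 against yl_11 and 4.16% in yl_11 against yl_10. At such shares few of 12 genes would be called, so the 0 says little about the neighbours. Beside DGA1, YALI1_E38744g had a log2 fold change of 0.07 (SE 0.09) in yl_12 against yl_10 and YALI1_E38896g one of 0.08 (SE 0.09), where DGA1 had 0.55. Beside LRO1 they were 0.08 (SE 0.06) for YALI1_E19958g and 0.14 (SE 0.09) for YALI1_E20070g, both of the opposite sign to LRO1. Neighbours are the nearest tested genes with a locus tag in the RefSeq table, so other genes may lie between them, and differences from the neighbours were not tested.

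For each member, the 2 features with the most similar pattern over the 9 libraries were found by Pearson's r of log2 CPM, as a description with no test. CPM here are counts scaled to the library total after adjustment by TMM factors. For DGA1 they were YALI1_D26263g (XM_503083.1, r = 0.99) and YALI1_D20222g (XM_502897.1, r = 0.99). YALI1_D26263g is far more abundant, at 1841 FPKM in yl_12, 1634 in yl_11 and 1536 in yl_10, and YALI1_D20222g had 97.3, 71.9 and 64.4 FPKM in these strains. For LRO1 they were XM_501923.1 (r = 0.98), with 539 FPKM in yl_12, 652 in yl_11 and 813 in yl_10, and YALI1_D00747g (XM_502252.1, r = 0.97). SCT1 was closest to YALI1_B25395g (XM_501095.1, r = 0.99) and YALI1_C20646g (XM_501845.1, r = 0.98). DGA2 was closest to YALI1_D29109g (XM_503161.1, r = 0.96) and YALI1_E38266g (XM_504680.1, r = 0.96). SLC1 was closest to YALI1_F37498g (XM_506029.1, r = 0.96) and YALI1_B27723g (XM_501176.1, r = 0.95). ARE1 had the least close partners, YALI1_E27731g (XM_504313.1, r = 0.93) and YALI1_C18396g (XM_501786.1, r = 0.93), and 10 features at an r of 0.9 or above, where DGA1 had 135. These values share the strain differences and the deviation of the 3 libraries described above. The acyltransferases were not each other's closest partners. The best place of one in the ranking for another was 91 of 6146 features, held by DGA1 for SLC1 (r = 0.85). DGA2 held place 196 for DGA1 (r = 0.87), and SCT1 held place 132 for DGA2 (r = 0.86). LRO1 had a negative r with every other member (-0.79 to -0.39). For ARE1, r with the members other than LRO1 was 0.07 (DGA2) to 0.50 (SLC1).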

How the data were processed

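The authors deposited raw read counts per feature and FPKM values for 9 libraries. The submitters' processing notes list the tools HTSeq 0.6.1 and DESeq 1.18.0 without saying what each was used for. Which alignment software, genome build, annotation and strand setting were used is not given in the sources used here, so reads of overlapping or antisense genes may have been split or lost. The deposited FPKM values equal the count divided by coding length and library total (largest relative spread of the length over libraries 9.4e-15) and hold no correction for composition.

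Counts of 6147 features were tested with edgeR 4.0.16 in R 4.3.3 (quasi-likelihood, TMM factors, default filter by strain, robust dispersions), with all 9 libraries in 1 fit and strain as the only term. P-values were adjusted over all tested features by the Benjamini-Hochberg method and called below 0.05. Ratios were tested by exact permutation. DESeq2 1.42.0 on counts and limma 3.58.1 on log2(FPKM + 1) were alternatives, beside other scalings, no filter, a replicate block and libraries left out. The edgeR step was tested on simulated counts. It recovered 70% to 79% of features changed by 0.5 on the log2 scale and 90% to 95% of those changed by 1.0. Of the calls, 5.06% to 6.78% were features that had not been changed. Smaller changes were not simulated, and the simulation held no library that stands apart.

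The members, the gene lists and the 3 libraries that stand apart were chosen with earlier results of these data known. The text names all 6 members, the listed pathway genes by counts with values for those called and examples of the others, and for each member the 2 features with the most similar pattern. Because separate cultures are not stated, p-values reflect library-to-library spread alone, and that spread may be technical.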

Additional observations from a re-analysis of the deposited data

How the results depend on the processing

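DGA1 and LRO1 in yl_12 against yl_10 kept direction and call in all 18 alternatives, as did FAS1, ACL2, POX2, POX3 and MFE1 there. For these pathway genes the alternatives were added after the data were seen. With 1 library left out, the number of acyltransferase genes called was 2 to 5 in yl_12 against yl_10, 0 to 3 in yl_12 against yl_11 and 1 to 4 in the F test. In yl_12 against yl_11 the count was 0 with library totals, limma and the 2 strains alone, and 2 with DESeq2. Of all features, 6.69%, 5.97%, 6.98% and 7.92% were then called. For the F test, shares by setting are not given here. Without the 3 libraries that stand apart the counts were 6 (yl_12 against yl_10), 5 (yl_12 against yl_11), 2 (yl_11 against yl_10) and 6 (F test), and with a term for them 4, 3, 2 and 4. The count over all features was 910 in yl_12 against yl_10, 1920 without these 3 libraries and 1466 with the term. In yl_12 against yl_11 it was 433, 1514 and 974, and in yl_11 against yl_10 it was 256, 1235 and 807. With 1 library left out it was 613 to 989, 190 to 718 and 63 to 519, in this order. The cause of these changes was not tested.

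Deviations of same-numbered libraries from the mean of their strain correlated at -0.354 to 0.274. With 3 libraries per strain, 1 of which stands apart, these values cannot show whether replicate numbers pair the samples. With the replicate number as a block, the F test called 1 acyltransferase gene in place of 2 (LRO1, adjusted p = 0.0603), and the number of features called was 757, 328 and 151 in place of 910, 433 and 256. The block lowered no call of a member between 2 strains. For the ratios, exact permutation within replicate numbers cannot give a p below 0.0278, and the adjusted p was 0.0694 for DGA1 to DGA2 (difference of yl_12 minus yl_10 in log2 ratio 0.31) and LRO1 to DGA1 (-0.74), and 0.104 for LRO1 to DGA2 (-0.43). Leaving out those 3 libraries gave 0.0833 (0.32), 0.0833 (-0.72) and 0.2 (-0.40), where exact permutation cannot go below 0.0667. With 1 library left out, the differences were 0.27 to 0.33 for DGA1 to DGA2, -0.81 to -0.65 for LRO1 to DGA1, -0.53 to -0.32 for LRO1 to DGA2, 0.09 to 0.28 for SCT1 to SLC1 and -0.15 to 0.20 for ARE1 to DGA2. ARE1 to DGA2, which was not called, turned from -0.03 to 0.11 without the 3 libraries that stand apart, and to 0.06 and 0.20 without yl_12 replicate 2 and without yl_10 replicate 3.

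The other signs that turned belonged to differences in yl_11 against yl_10 that were not called. DGA2 (0.0002) went to -0.0015 with DESeq2 size factors, -0.0253 with library totals, -0.0005 with the DESeq2 test, -0.0025 with no filter, -0.0084 with limma and -0.061 without the 3 libraries that stand apart, and ranged from -0.084 to 0.073 with 1 library left out. SLC1 (0.0046) went to -0.0192 with library totals and -0.0176 with limma, and ranged from -0.0143 to 0.0178 with 1 library left out. ARE1 ranged from -0.0331 to 0.1985 in the same fits. Scaling by library totals put the median over all features at -0.0582 on the log2 scale in yl_12 against yl_10, the furthest of the 3 comparisons. Counting error, computed from the mean count of a strain's libraries, was up to 4.76% of a strain's mean level (DGA2 in yl_10). It is larger in single libraries with fewer counts, such as yl_10 replicate 3 with 264 for DGA2. Counting error was at or above the observed spread in 5 of 18 pairs of member and strain, among them LRO1 and SLC1 in yl_11 and yl_10. Depth thus limits the precision of their small differences.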
